A study of Mus musculus with 9 samples.

Results

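Cells keep their volume under osmotic load by taking up or making small organic osmolytes, and 9 genes of that response were followed here in mouse 2-cell embryos, because high glucose in a medium also raises its osmolality. The 9 genes were taken by name and not by a cut on their values, though earlier results of these data were known. They were the regulators Nfat5 and Sgk1, the polyol pathway enzyme Akr1b3, the osmolyte transporters Slc5a3, Slc6a6, Slc6a9 and Slc6a12, and the aquaporins Aqp3 and Aqp9. All 9 are among the 24454 gene symbols of the count table. Of the 9, 8 had reads in every library and enough counts to be tested, and Slc6a12 had no count in any library.

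The samples were ICR mouse embryos grown in vitro from zygote to 2-cell stage, with 3 libraries in each group and 3 embryos pooled per library. The first group had a high glucose load plus rat serum that carried ZGW, the labels' name for the drug, and the second the high glucose load alone. The third was a control group, for which the labels name no treatment. The labels give no glucose concentration or osmolality, and whether the high glucose and control embryos were given serum without drug is not stated, so drug and serum cannot be told apart in a difference from the ZGW serum group. Shared matings are not stated either, and p-values reflect only how far these pools spread. In bulk libraries fewer cells of a type and less RNA per cell cannot be told apart.

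Nfat5 encodes a transcription factor that is activated by hypertonicity and turns on osmolyte genes through short DNA elements, and Sgk1 encodes a kinase whose transcript responds to cell shrinkage and to glucocorticoids. Akr1b3 encodes aldose reductase, which reduces glucose to the osmolyte sorbitol in the polyol pathway. Slc5a3 carries myo-inositol, Slc6a6 taurine, Slc6a9 glycine and Slc6a12 betaine and GABA into cells. In cleavage-stage mouse embryos glycine taken up through the Slc6a9 transporter is a known organic osmolyte. Aqp3 and Aqp9 are aquaglyceroporins, channels for water and for small solutes such as glycerol.

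The core of the NFAT5 element was looked for in the promoters of these genes, and some windows are printed to show the letters found. Only the core was searched and not the full element, and whether NFAT5 acts at these sites was not tested. The windows of 300 bases end 50 bases after a RefSeq transcript start (GRCm38.p6), and 7 of the 9 genes had 1 or more windows, 19 in total. Akr1b3 and Slc6a6 had none. The letters searched were TGGAAA on either strand, and matches are in capitals in the lines that follow. A match occurred in 4 of the 19 windows, in Slc6a12, Aqp9 and Sgk1, against 21.4% of 32851 windows of all genes. Aqp3, the gene with the largest difference between high glucose and control among the 9, had no match in its window. The match in the first Slc6a12 window lies 75 bases before the start, that of Aqp9 188 bases and that of the Sgk1 window shown 163 bases.
Slc6a12, chr6:121342324-121342623, plus strand: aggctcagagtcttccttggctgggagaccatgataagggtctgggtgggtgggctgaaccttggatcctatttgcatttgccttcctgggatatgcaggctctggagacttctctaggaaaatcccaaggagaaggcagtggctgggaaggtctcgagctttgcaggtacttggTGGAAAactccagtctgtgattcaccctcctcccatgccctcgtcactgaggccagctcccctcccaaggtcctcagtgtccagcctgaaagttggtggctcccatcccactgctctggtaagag
Aqp9, chr9:71163240-71163539, minus strand: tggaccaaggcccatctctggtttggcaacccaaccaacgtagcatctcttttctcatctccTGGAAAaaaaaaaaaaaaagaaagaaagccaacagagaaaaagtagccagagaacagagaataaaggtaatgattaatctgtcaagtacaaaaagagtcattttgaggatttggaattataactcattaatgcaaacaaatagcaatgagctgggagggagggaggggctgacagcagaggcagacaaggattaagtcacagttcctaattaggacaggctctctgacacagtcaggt
Sgk1, chr10:21993640-21993939, plus strand: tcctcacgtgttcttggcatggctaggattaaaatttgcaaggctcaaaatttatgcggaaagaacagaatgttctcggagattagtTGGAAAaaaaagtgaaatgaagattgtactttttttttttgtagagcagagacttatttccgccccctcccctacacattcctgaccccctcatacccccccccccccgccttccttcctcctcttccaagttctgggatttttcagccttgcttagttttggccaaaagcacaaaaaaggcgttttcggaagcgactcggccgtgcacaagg
Aqp3, chr4:41098134-41098433, minus strand: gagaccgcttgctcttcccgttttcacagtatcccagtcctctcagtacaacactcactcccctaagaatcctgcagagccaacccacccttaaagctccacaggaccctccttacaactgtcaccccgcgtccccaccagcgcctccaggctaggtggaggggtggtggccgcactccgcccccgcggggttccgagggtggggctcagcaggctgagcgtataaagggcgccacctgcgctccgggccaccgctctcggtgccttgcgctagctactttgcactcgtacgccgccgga

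Library totals ran from 11934924 to 16916343 counts. Control replicate 1 and ZGW serum replicate 3 had the lowest median correlation with libraries of other groups, at 0.802 and 0.803. The 9 oocyte and early embryo markers were abundant in every library. They summed to 16500 to 41200 CPM with ZGW serum, 12400 to 17500 CPM under high glucose and 18500 to 26900 CPM in control. The sum under high glucose lay below control without overlap, but it was mostly Dppa3 and Oosp1, which were both lower. Every other marker of this list overlapped between these groups. Bmp15 went the other way, with 1570, 1020 and 1510 CPM under high glucose against 558, 926 and 1060 CPM in control. Gdf9 had 319, 225 and 328 against 118, 226 and 203 CPM. The 12 markers of cumulus and granulosa cells summed to 3.55 to 6.76 CPM with ZGW serum, 5.68 to 13.2 CPM under high glucose and 11.3 to 25.6 CPM in control, and the 8 of stroma and epithelium to 11.6 to 48.8, 47.4 to 90.0 and 86.2 to 176 CPM in the same order. None of these markers was at 0 in all 9 libraries, and Ptx3, Areg, Foxl2 and Inha of the cumulus and granulosa list stayed at 0.553 CPM or less throughout. In both lists the sums with ZGW serum did not overlap control, but single markers differed. Amh was higher in every ZGW serum library, at 1.11, 1.81 and 1.87 CPM against 0.803, 0.373 and 0.439 CPM in control. Vim had 5.05, 18.7 and 0 CPM with ZGW serum against 0.146, 0.671 and 6.80 CPM in control. Most of the stroma and epithelium sum in control was Epcam and Krt18. The 9 genes of embryonic genome activation summed to 1580 to 4360 CPM with ZGW serum, 6570 to 13000 CPM under high glucose and 3650 to 10000 CPM in control, and the 8 blood markers to 315 to 532, 89.7 to 306 and 234 to 357 CPM in the same order, so both separated ZGW serum from high glucose. The part of these markers in the results on the 9 genes was not tested.

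Aldose reductase was the most abundant of the 9 transcripts per length. With CPM divided by the exon length of the gene in kilobases, Akr1b3 averaged 25.9 CPM per kb over the 9 libraries, above 87.9% of the genes tested. Aqp9 averaged 4.94 and Slc6a9 4.89 CPM per kb. They were followed by Sgk1 at 2.81, Slc6a6 at 2.39, Slc5a3 at 1.22, Aqp3 at 1.17 and Nfat5 at 0.691 CPM per kb. The lowest Akr1b3 library, at 9.60 CPM per kb, stood above the highest Aqp9 library, at 8.34. Every other neighbouring pair in this order overlapped between libraries, apart from Slc6a12. Exon lengths merge all annotated transcripts, which for Akr1b3 include unspliced forms, and with the length of the principal transcript Akr1b3 averaged 156 CPM per kb, Aqp9 7.75, Slc6a9 7.21 and Slc5a3 and Aqp3 1.22 each. The order of the genes stayed as given, with that tie.

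**Figure D1:**
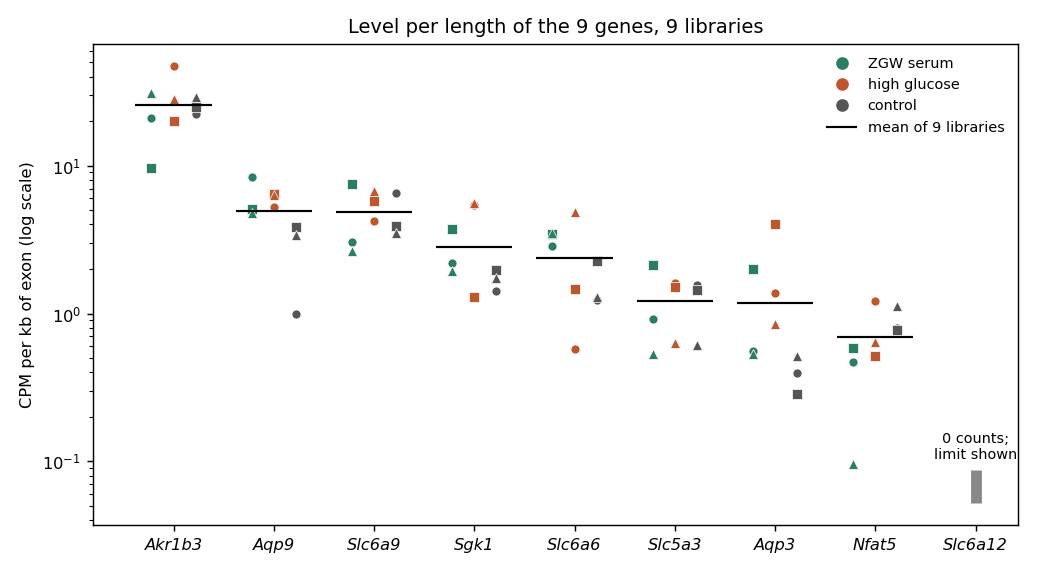
Level per length of the 9 genes, in CPM per kilobase of merged exon on a log axis, with 1 point per library coloured by group (circle, square and triangle are replicates 1, 2 and 3) and a line at the mean of the 9 libraries. Akr1b3 lies apart at a mean of 25.9, and the grey bar for Slc6a12 spans the limits that 0 counts allow, 0.0523 to 0.0874 CPM per kb.

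Slc6a12, which encodes the betaine and GABA transporter (chromosome 6, 121343076 to 121365775, GRCm38), had 0 counts in each of the 9 libraries. At these depths 0 counts allow a level of up to 0.160 to 0.267 CPM per library. Among all symbols, 2.28% were likewise at 0 throughout. No group can be compared with another for this gene. Among other carriers of betaine, proline or GABA, Slc6a20a, a proline and betaine carrier known from mouse embryos, was detected at 9.04 to 43.4 CPM with ZGW serum, 14.1 to 19.8 CPM under high glucose and 12.2 to 16.6 CPM in control.

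Akr1b3 (chromosome 6, 34302434 to 34317478) could not be told apart from a pseudogene in the deposited counts. The symbol Gm6644, a processed pseudogene on chromosome 1 (55444074 to 55445024), had the same count as Akr1b3 in 8 of 9 libraries and differed by 2 counts in the other. The principal Akr1b3 transcript and Gm6644 share an unbroken run of 535 bases that begins at the first base of the Akr1b3 coding sequence, and 56.2% of that transcript's stretches of 50 bases occur in Gm6644. The first 60 bases of the run are printed here to show the sequence that both genes hold.
Akr1b3 coding bases shared with Gm6644: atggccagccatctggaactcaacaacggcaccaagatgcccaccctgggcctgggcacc
The cause of the equal counts was not tested, and levels given for Akr1b3 may include reads of Gm6644.

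No gene of the set passed the test between any 2 groups. By edgeR's quasi-likelihood test, at an adjusted p under 0.05, 0 of the 8 tested genes were called in each of the 3 comparisons, beside 0 (0%) of all 16964 genes. Under high glucose against control, both aquaporin transcripts were higher in every high glucose library than in every control library. This made 2 of 8 genes whose groups did not overlap, against 13.7% of all genes tested (6.84% higher and 6.91% lower), and 1 of 8, Aqp3, had an unadjusted p under 0.05 by edgeR, against 7.39% of all genes. The median log2 fold change of the 8 was 0.42, with 7 higher and 1 lower, beside -0.02 over all genes.

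With ZGW serum against high glucose alone, 0 of 8 genes had groups that did not overlap, where 17.3% of all genes did (9.08% higher and 8.26% lower), and 0 of 8 had an unadjusted p under 0.05 by edgeR, where 8.68% did. Of the 8, 2 had a higher mean and 6 a lower one, with a median log2 fold change of -0.49 beside 0.00 over all genes. With ZGW serum against control, the groups did not overlap for 4 of 8 genes, Aqp9, Slc6a6 and Aqp3 on the higher side and Nfat5 on the lower, against 16.3% of all genes (9.02% higher and 7.3% lower). None of the 8 had an unadjusted p under 0.05 by edgeR in that comparison, where 9.86% of all genes did, and their median log2 fold change was 0.30 beside 0.00 over all genes. Each pair of these comparisons shares a group of libraries, so their values are not independent.

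**Figure D2:**
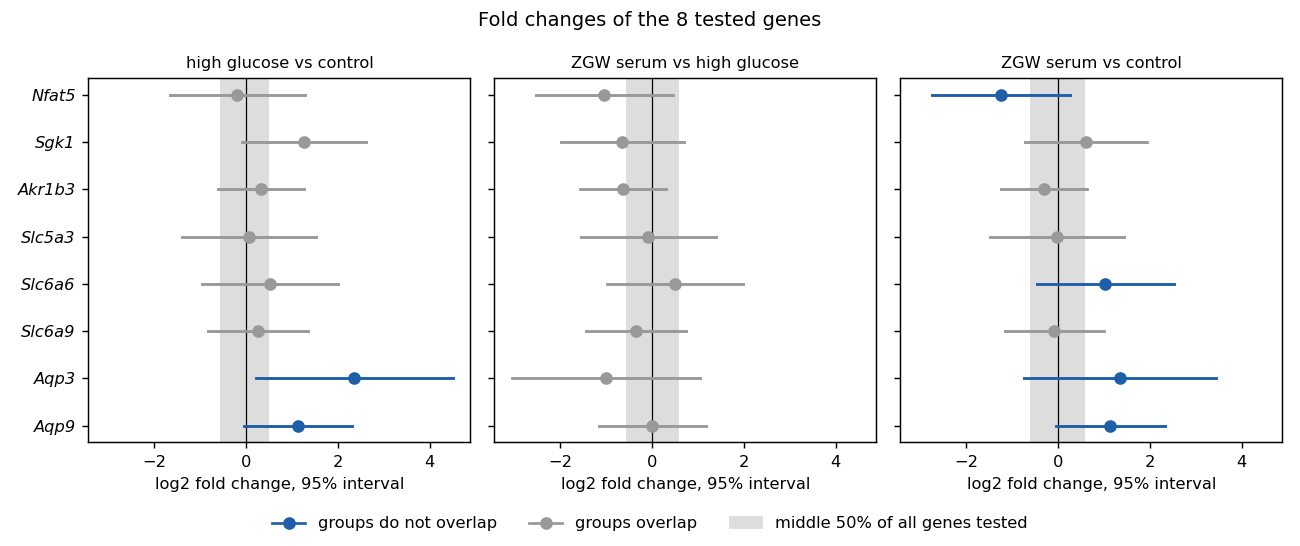
Log2 fold change (horizontal axis) with its 95% interval for the 8 tested genes in the 3 comparisons, by edgeR, with blue marking genes whose groups did not overlap and the grey band the middle 50% of all genes tested. The Aqp3 interval between high glucose and control, 0.22 to 4.51, is the one that does not reach 0.

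Aqp3 (chromosome 4, 41092722 to 41098183) was the least counted of the detected genes, with 7 to 96 reads per library. It had 2.5, 7.39 and 1.55 CPM under high glucose, against 0.730, 0.522 and 0.950 CPM in control. With ZGW serum it had 1.03, 3.67 and 0.978 CPM. The high glucose libraries all lay above control, the lowest ZGW serum library lay just above the highest control library, and in each treated group replicate 2 was the highest. At 7 counts the counting error alone is 37.8% of the value, and at 96 counts 10.2%.

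Aqp3 had a log2 fold change of 2.36 ± 0.97 (SE) for high glucose against control, with an unadjusted p of 0.0339 and an adjusted p of 0.656 by edgeR. It was 1.43 without high glucose replicate 2. Between ZGW serum and high glucose the log2 fold change was -1 ± 0.93 (SE, edgeR adjusted p = 0.807), and -0.10 without high glucose replicate 2. Against control, embryos with ZGW serum had a log2 fold change of 1.36 ± 0.95 (SE, edgeR adjusted p = 0.669), and 0.41 without ZGW serum replicate 2.

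Aqp9 (chromosome 9, 71110659 to 71168682) had close to the same level in both glucose-loaded groups, and less in control. It had 34.6, 21.0 and 19.8 CPM with ZGW serum, 21.8, 26.7 and 26.3 CPM under high glucose and 4.09, 15.9 and 14.2 CPM in control. All 6 glucose-loaded libraries lay above the 3 control libraries, and control replicate 1, one of the libraries that stood apart, was the lowest of the 9. High glucose against control gave a log2 fold change of 1.13 ± 0.54 (SE), with a 95% interval of -0.05 to 2.31 and an adjusted p of 0.696 by edgeR. With ZGW serum against control it was 1.14 ± 0.54 (SE, edgeR adjusted p = 0.520). Without control replicate 1 these were 0.73 and 0.74. Between ZGW serum and high glucose the log2 fold change was 0.01 ± 0.53 (SE), with a 95% interval of -1.15 to 1.18, so a difference of about 2-fold either way is within the error.

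**Figure D3:**
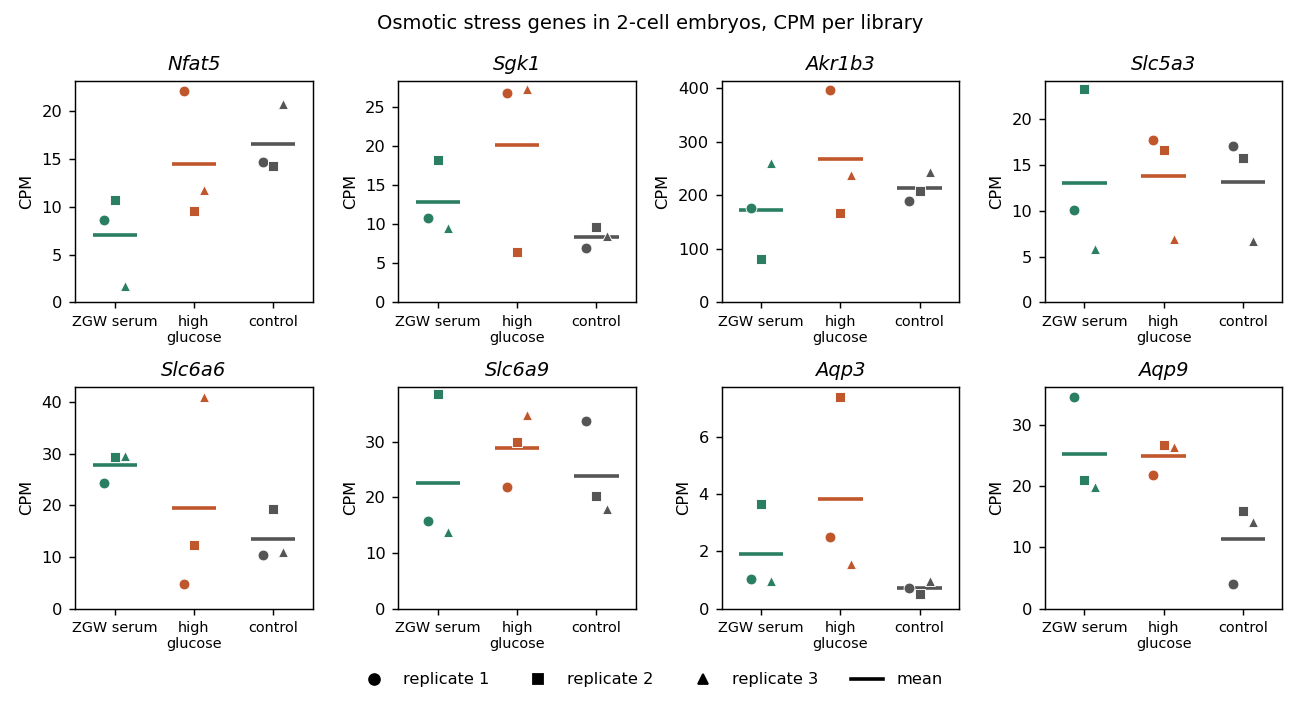
CPM of the 8 detected genes in each library, with ZGW serum, high glucose and control from left to right in each panel, the symbol giving the replicate and the line the group mean (vertical axes start at 0). For Aqp9 the 6 glucose-loaded libraries, 19.8 CPM and above, lie over control, at most 15.9, and for Slc6a6 the high glucose libraries run from 4.84 to 41.0.

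Sgk1 (chromosome 10, 21882184 to 21999903) was high in 2 of the 3 high glucose libraries. It had 26.7, 6.39 and 27.3 CPM under high glucose, against 7.01, 9.69 and 8.48 CPM in control. With ZGW serum it had 10.8, 18.2 and 9.51 CPM. High glucose replicate 2 was the lowest of the 9 libraries, and the groups overlap in every comparison. High glucose against control gave a log2 fold change of 1.26 ± 0.61 (SE, edgeR adjusted p = 0.697). It ranged from 0.98 without high glucose replicate 3 to 1.65 without high glucose replicate 2. Set against high glucose, ZGW serum gave -0.65 ± 0.61 (SE, edgeR adjusted p = 0.809), and for ZGW serum against control 0.61 ± 0.61 (SE, edgeR adjusted p = 0.780), the last being 0.25 without ZGW serum replicate 2.

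Nfat5 (chromosome 8, 107293470 to 107379517), the tonicity regulator itself, had similar means under high glucose and in control and its lowest values with ZGW serum. It had 8.60, 10.7 and 1.78 CPM with ZGW serum, 22.2, 9.55 and 11.8 CPM under high glucose and 14.7, 14.2 and 20.8 CPM in control. The ZGW serum libraries all lay below control and overlapped high glucose. ZGW serum replicate 3, with 20 reads and one of the libraries that stood apart, was the lowest of the 9. The log2 fold change for ZGW serum against control was -1.23 ± 0.68 (SE, edgeR adjusted p = 0.582), and -0.75 without that library. For ZGW serum against high glucose it was -1.04 ± 0.67 (SE, edgeR adjusted p = 0.706), and -0.56 without that library. Between high glucose and control it was -0.19 ± 0.67 (SE, edgeR adjusted p = 0.974), a sign that turned to 0.01 without high glucose replicate 2. As given above, the summed cumulus and granulosa markers and stroma and epithelium markers were also lower with ZGW serum than in control. Not every marker of these lists was, and their part in the Nfat5 values was not tested.

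For Akr1b3, with the equal counts of Gm6644 in mind, values were 175.9, 80.5 and 260.1 CPM with ZGW serum, 396.9, 167.5 and 237.0 CPM under high glucose and 188.5, 207.8 and 243.3 CPM in control. Control libraries lay close together, and both glucose-loaded groups spread on either side of them. Its log2 fold change was 0.33 ± 0.42 (SE, edgeR adjusted p = 0.909) for high glucose against control, with a 95% interval of -0.61 to 1.26. It was -0.08 without high glucose replicate 1. Set against high glucose, ZGW serum gave -0.63 ± 0.42 (SE, edgeR adjusted p = 0.720), from -0.24 without high glucose replicate 1 to -1.03 without ZGW serum replicate 3. Against control, ZGW serum gave -0.31 ± 0.42 (SE, edgeR adjusted p = 0.852). The interval for high glucose spans both directions.

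The taurine transporter Slc6a6 (chromosome 6, 91684053 to 91759066) was even with ZGW serum and uneven under high glucose. It had 24.4, 29.3 and 29.4 CPM with ZGW serum, 4.84, 12.4 and 41.0 CPM under high glucose and 10.4, 19.2 and 10.9 CPM in control. All ZGW serum libraries lay above control, and the high glucose libraries covered the range of both other groups, with an 8.47-fold span from lowest to highest. The log2 fold change for ZGW serum against control was 1.03 ± 0.68 (SE, edgeR adjusted p = 0.642). For ZGW serum against high glucose it was 0.51 ± 0.67 (SE, edgeR adjusted p = 0.883), from 0.05 without high glucose replicate 1 to 1.68 without high glucose replicate 3. The log2 fold change of 0.52 ± 0.67 (SE, edgeR adjusted p = 0.909) for high glucose against control rested on high glucose replicate 3 and was -0.65 without it.

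The glycine transporter Slc6a9 (chromosome 4, 117834506 to 117875198) had 15.7, 38.6 and 13.7 CPM with ZGW serum, 21.8, 29.9 and 34.8 CPM under high glucose and 33.6, 20.2 and 17.9 CPM in control. The 3 groups overlap, and ZGW serum holds both the highest and the 2 lowest of the 9 libraries. Log2 fold changes were 0.27 ± 0.49 (SE, edgeR adjusted p = 0.941) for high glucose against control, -0.34 ± 0.49 (SE, edgeR adjusted p = 0.894) for ZGW serum against high glucose and -0.08 ± 0.49 (SE, edgeR adjusted p = 0.971) for ZGW serum against control. The middle one was -0.97 without ZGW serum replicate 2, and the last one was -0.73 without that library and 0.25 without control replicate 1. Of the Slc6a9 exon bases, 27.8% overlap Ccdc24 on the other strand, and the strand setting of the counts is not given, so some reads may belong to Ccdc24, which was itself counted at 0.584 to 2.93 CPM.

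The myo-inositol transporter Slc5a3 (chromosome 16, 92058322 to 92087473) had nearly equal means in the 3 groups, 13 ± 9.11 CPM with ZGW serum, 13.7 ± 5.91 CPM under high glucose and 13.1 ± 5.65 CPM in control (SD, n = 3 each). By library it had 10.02, 23.2 and 5.78 CPM with ZGW serum, 17.7, 16.6 and 6.93 CPM under high glucose and 17, 15.7 and 6.65 CPM in control. Replicate 3 was the lowest in every group. Log2 fold changes were 0.07 ± 0.66 (SE) for high glucose against control, -0.08 ± 0.66 for ZGW serum against high glucose and -0.01 ± 0.66 for ZGW serum against control, with edgeR adjusted p-values from 0.990 to 0.998. Each of these changed sign when single libraries were left out, between -0.80 and 0.38 in all. The gene overlaps Mrps6 on the same strand and shares 159 exon bases, 1.46% of its own, with that mitochondrial ribosomal protein gene.

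**Figure D4:**
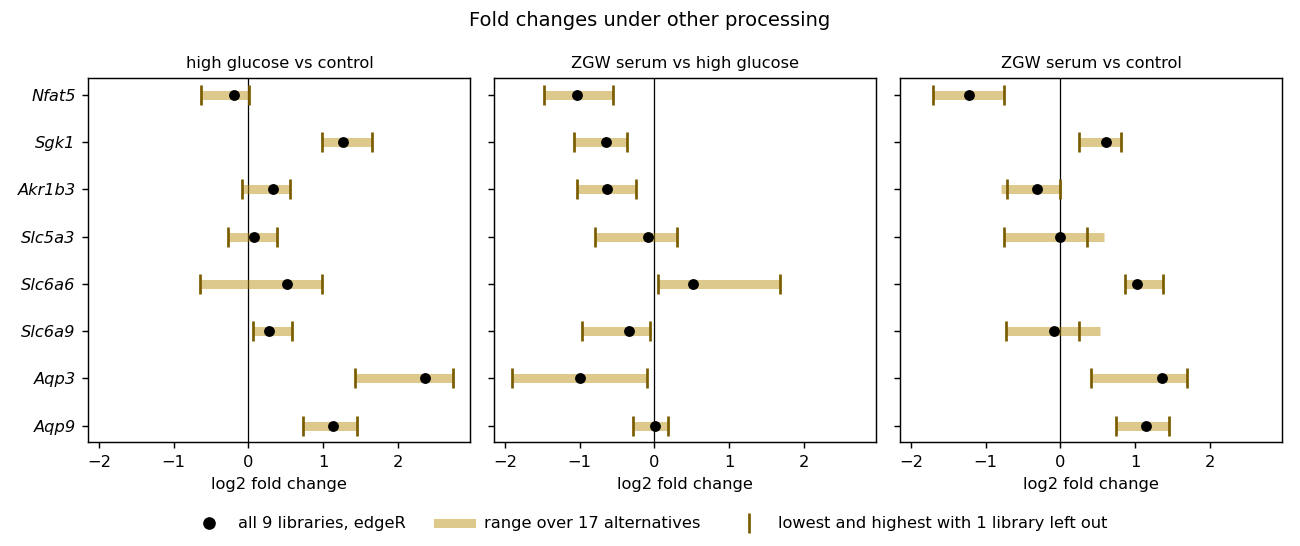
Log2 fold changes (horizontal axis) of the 8 tested genes in the 3 comparisons by edgeR with all 9 libraries (black point), the range over the 17 alternatives (bar) and the lowest and highest values with 1 library left out (ticks). The Slc6a6 bar between high glucose and control runs from -0.65 to 0.98, while Aqp3 and Sgk1 in that comparison stay at 0.98 or above.

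The 8 genes did not all rise and fall together across the 9 libraries. Of the 28 pairs, 17 had a positive and 11 a negative Pearson correlation of log2 CPM over the 9 libraries, from -0.57 to 0.56. None passed after Benjamini-Hochberg adjustment over the 28 pairs. The strongest was between Nfat5 and Slc6a6 (r = -0.57, exact permutation p = 0.105, adjusted p = 0.741, Spearman's rho -0.72, exact permutation p = 0.0369, adjusted p = 0.516), with r = -0.49 without the 2 libraries farthest from the Nfat5 median and -0.32 within groups. The next was between Slc5a3 and Slc6a9 (r = 0.56, exact permutation p = 0.116, adjusted p = 0.741, Spearman's rho 0.67, exact permutation p = 0.0589, adjusted p = 0.550), with r = 0.20 without the 2 libraries farthest from the Slc5a3 median and 0.57 within groups. Within groups the strongest correlation was between Akr1b3 and Slc6a9 (r = -0.85, and -0.50 over the 9 libraries), and correlations within groups were not tested. The spread within groups, as edgeR's biological coefficient of variation, ran from 0.381 for Akr1b3 to 0.810 for Aqp3, with 0.679 as the median of all genes tested.

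The pattern of single genes over the 9 libraries was compared with that of other genes by Pearson correlation of log2 CPM, as a description. The 6873 genes compared averaged 10 CPM or more, with symbols of predicted genes and clone names left out. Gm6644, whose counts were nearly those of Akr1b3, was therefore not among them. The 3 most alike are given for each gene. Nfat5 was most like Rc3h2 (r = 0.979), Pa2g4 (0.968) and Klf4 (0.951). Sgk1 was most like Sep15 (0.946), Bfsp1 (0.913) and Sord (0.904). Akr1b3 was most like Acp1 (0.969), Trip4 (0.956) and Zfp655 (0.942). For the transporters, Slc5a3 was most like Sec11c (0.921), Ift57 (0.89) and Luc7l3 (0.888), Slc6a6 most like Sipa1l1 (0.932), Acacb (0.919) and Gle1 (0.914), and Slc6a9 most like Adar (0.935), Lrpap1 (0.926) and Pabpn1 (0.901). Aqp9 was most like Golgb1 (0.977), Ppp1r3d (0.942) and Asun (0.938). These are the highest of 6873 values for each gene, each over only 9 libraries.

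Related genes of osmolyte handling and cell volume were examined in 9 lists, and none of their members passed the edgeR test adjusted over all genes. Among 17 tested genes of cell volume and ion transport, 7 were higher and 10 lower under high glucose than in control, with a median log2 fold change of -0.04. Beside this and the lists below, 49% of all genes tested were higher in that comparison, with a median of -0.02. Lrrc8b, a subunit of the volume-regulated anion channel that releases osmolytes from swollen cells, had 4.50, 4.42 and 5.69 CPM with ZGW serum, against 22.7, 24.0 and 22.5 CPM under high glucose. It had 8.83, 15.4 and 2.41 CPM in control. High glucose libraries lay together above all others, with a log2 fold change of -2.24 ± 0.66 (SE) for ZGW serum against high glucose, an unadjusted p of 0.00613 and an adjusted p of 0.448 by edgeR. DESeq2 called that difference (adjusted p = 0.0169), as 1 of 315 genes it called in that comparison.

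Lrrc8a, the obligatory subunit of the volume-regulated anion channel, had 36.6, 23.4 and 21.6 CPM with ZGW serum, against 49.3, 63.6 and 46.6 CPM in control (edgeR adjusted p = 0.439), and it shares 65.2% of its stretches with the overlapping gene Gm28035.

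Among 9 tested genes that respond to tonicity or are known NFAT5 targets, 5 were higher and 4 lower under high glucose than in control, and the median log2 fold change was 0.15. Slc38a2, a neutral amino acid carrier whose transcript is known to increase under hypertonicity, had 1, 1 and 0 reads under high glucose, against 1, 34 and 34 reads in control. Slc7a5, a large neutral amino acid carrier, had 19.8, 15.1 and 12.1 CPM under high glucose, against 5.69, 6.11 and 5.48 CPM in control (log2 fold change 1.44 ± 0.62 SE, edgeR adjusted p = 0.672). Cryab, which encodes the small heat shock protein alphaB-crystallin, had 0.0757, 0.924 and 0.734 CPM under high glucose, against 1.17, 4.995 and 6.07 CPM in control (log2 fold change -2.80 ± 1.06 SE, edgeR adjusted p = 0.627). In this list 3 of 9 genes had an unadjusted p under 0.05 by edgeR, against 7.39% of all genes. Of these, Slc38a2 and Cryab were lower under high glucose and Slc7a5 was higher. Slc38a2 and Cryab had few reads, Cryab with 1, 12 and 9 under high glucose, and the Slc38a2 groups overlap. Hspa1a and Hspa1b, inducible Hsp70 genes, were higher in every ZGW serum library than in every control library, with log2 fold changes of 1.59 and 1.37 and edgeR adjusted p-values of 0.487 and 0.483, and 60.3% of Hspa1a's and 62.3% of Hspa1b's stretches occur in other genes, mostly in each other.

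In the polyol list, which holds sorbitol dehydrogenase (Sord), with 3 of 7 tested genes higher and 4 lower under high glucose than in control (median -0.35), Sord had 44.4, 6.62 and 23.3 CPM under high glucose, against 10.1, 12.2 and 12.3 CPM in control (log2 fold change 1.10, edgeR adjusted p = 0.737). As for Sgk1, replicates 1 and 3 were high and replicate 2 was below control. Of Sord's stretches, 31.3% occur in the pseudogene Gm6652. In the myo-inositol list 3 of 6 were higher and 3 lower (median -0.14), with Impa1, an inositol monophosphatase, at 2, 1 and 2 reads under high glucose, against 114, 4 and 93 reads in control (edgeR adjusted p = 0.627). Miox, the enzyme that breaks down myo-inositol, was abundant in this list, at 202.0 to 513.7 CPM with ZGW serum, 397.7 to 633.3 CPM under high glucose and 311.1 to 642.3 CPM in control.

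In the taurine and betaine metabolism list 6 of 8 were higher under high glucose than in control, with a median of 0.34, and the taurine synthesis enzyme Cdo1 averaged 398 ± 147 CPM under high glucose and 277 ± 45.5 CPM in control (SD, n = 3, edgeR adjusted p = 0.794). The other osmolyte transporters had 4 of 9 higher and a median of -0.03. SGK signalling genes had 8 of 12 higher and a median of 0.15, and genes upstream of NFAT5 5 of 11 higher and a median of -0.17. Sgk3, a kinase related to Sgk1, had 40.7, 27.2 and 17.1 CPM with ZGW serum, against 47.5, 144.1 and 70.2 CPM under high glucose (log2 fold change -1.62 ± 0.66 SE, edgeR adjusted p = 0.553). Rac1, a small GTPase upstream of NFAT5, averaged 378 ± 47.4 CPM with ZGW serum and 237 ± 42.4 CPM in control (SD, n = 3, edgeR adjusted p = 0.439), and 51.4% of its exon bases overlap Daglb on the other strand.

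The other aquaporins had 5 of 6 tested genes higher with ZGW serum than under high glucose, with a median of 1.03, beside 50.1% of all genes. Against control 5 of 6 were higher with ZGW serum, with a median of 1.14, beside 50% of all genes. These counts do not stand for 6 separate genes. Aqp5 and Aqp6 had equal counts in 8 of 9 libraries, and Aqp2 came within 3 counts of both in every library, although these neighbours on chromosome 15 share no stretch of 50 bases. Each had 180 to 182 reads over the 9 libraries.

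**Figure D5:**
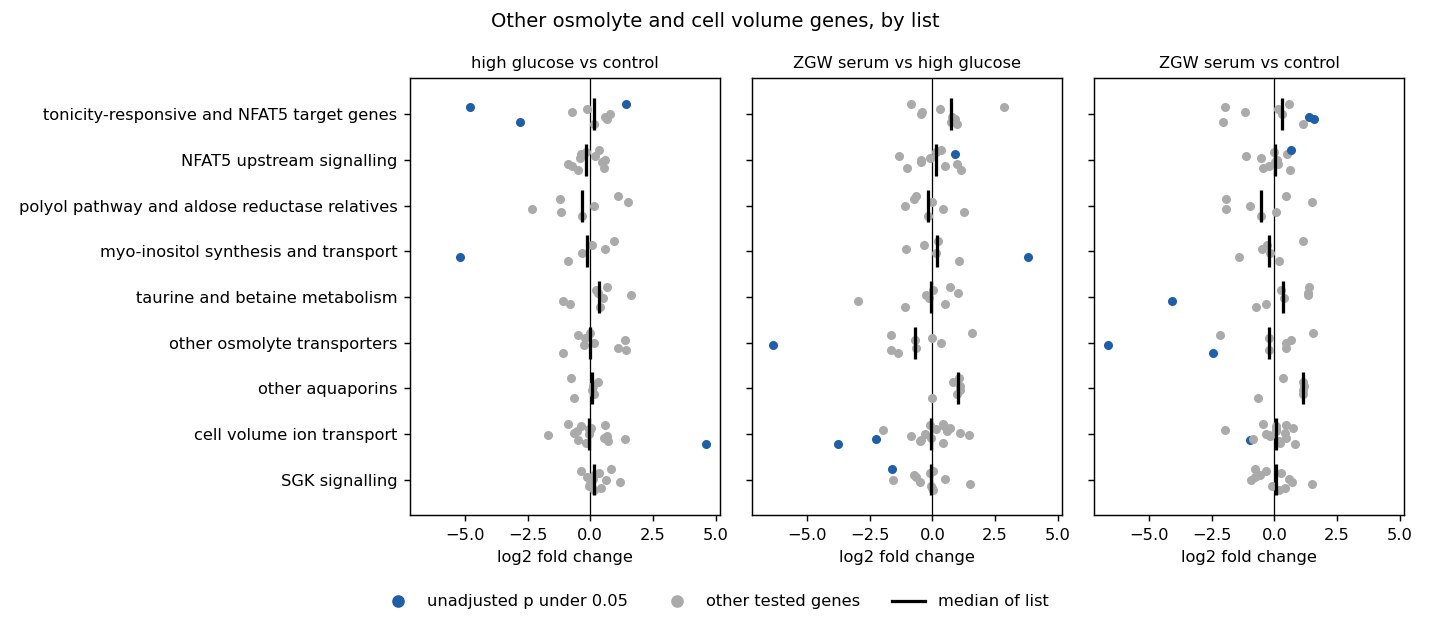
Log2 fold change (horizontal axis) of each tested gene in 9 lists related to osmolytes and cell volume, in the 3 comparisons by edgeR, with blue points for an unadjusted p under 0.05 and a black line at the list's median. Medians lie between -0.71 and 1.14, and the farthest points on the left in the ZGW serum panels belong to Slc6a13, whose fitted value depends on the prior count because all 3 ZGW serum libraries were at 0.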

How the data were processed

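RNA of mouse embryos was sequenced in 9 libraries, 3 per group, with 3 embryos pooled in each. The authors deposited counts per gene symbol as whole numbers without normalisation. Per the submitters' processing notes, Trim Galore and mm10 were used. Not given in the sources used here are the aligner, counter, annotation, strand setting and handling of multiply matching reads.

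Groups and replicate numbers came from the labels. The 9 genes, the related lists and the tests were chosen with earlier results of these data known. edgeR 4.0.16 (in R 4.3.3) fitted all 9 libraries together with a mean for every group, TMM factors and no block, after its expression filter (minimum count 10). P-values of the quasi-likelihood test were adjusted by Benjamini-Hochberg across 16964 genes and called at 0.05. CPM are counts scaled to the TMM-adjusted library total. Log2 CPM used a prior count of 2. Intervals of log2 fold changes cover 95%, from the standard error and the degrees of freedom. Limits for a count of 0 (3 counts per library) cover counting error only.

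Positions, exon lengths (found for 95.7% of symbols) and transcripts came from GENCODE M21 on GRCm38, the assembly that mm10 names, and promoter windows from RefSeq on GRCm38.p6. Shared sequence is the share of a gene's stretches of 50 bases that other genes' transcripts hold. Related genes were named where an unadjusted p was under 0.05, or otherwise as the 2 lowest p of a list. Slc6a20a and Miox were named outside that rule, after their values were seen. Correlations between the genes were tested by exact permutation. Other settings tried were limma-voom (limma 3.58.1, quality weights), DESeq2 1.42.0, RLE factors, no filter, a filter of 10 counts in 6 or more libraries, fits of 2 groups alone, a replicate block, leaving out each library, and leaving out control replicate 1 with ZGW serum replicate 3. Simulated counts with known changes served to check the edgeR step. One related gene that the rule would name is not reported here.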

Additional observations from a re-analysis of the deposited data

How the results depend on the processing

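The 8 tested genes kept their direction in 380 of 408 values under other processing, 20 of the 28 changes coming from leaving out 1 library, and none passed the threshold (lowest adjusted p 0.218, Aqp3 by DESeq2 between high glucose and control). Counts of called genes did depend on the tool. Against 0 by edgeR, with 1253 genes at an unadjusted p under 0.05 for high glucose against control, 1473 for ZGW serum against high glucose and 1673 for ZGW serum against control, DESeq2 called 204, 315 and 455. In the last of these, limma-voom, no filter and the stricter filter each called 1, the gene Paip1. Of the lists, DESeq2 called 1 of 18 genes of cell volume and ion transport (Lrrc8b) for ZGW serum against high glucose, where it called 315 in all. For ZGW serum against control, where it called 455 in all, it called 1 of 12 other osmolyte transporters (Slc1a1). DESeq2 was run without the expression filter, on the 24454 symbols less the 557 at 0 in every library. Its calls are therefore not shares of the 16964 genes that edgeR tested. The cause of the difference between tools was not tested.

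Of the signs that turned, that of Slc6a6 for high glucose against control belonged to the largest value, 0.52. limma-voom gave Slc5a3 -0.09 for high glucose against control and 0.01 for ZGW serum against high glucose. Aqp9 between ZGW serum and high glucose was -0.0019 with RLE factors, -0.02 by DESeq2 and -0.03 without a filter. Without both control replicate 1 and ZGW serum replicate 3, Slc5a3 was 0.31 for ZGW serum against high glucose and 0.59 against control, Slc6a9 was 0.53 for ZGW serum against control, and Aqp9 was 0.72 for high glucose against control. With 1 library left out the ranges for high glucose against control were -0.63 to 0.01 for Nfat5, -0.08 to 0.55 for Akr1b3, -0.28 to 0.38 for Slc5a3 and -0.65 to 0.98 for Slc6a6. For ZGW serum against high glucose they were -0.80 to 0.30 for Slc5a3 and -0.29 to 0.18 for Aqp9. For ZGW serum against control they were -0.71 to 0.00058 for Akr1b3, -0.76 to 0.36 for Slc5a3 and -0.73 to 0.25 for Slc6a9.

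Deviations of same-numbered libraries of different groups correlated at -0.01 to 0.10, and those of differently numbered libraries at -0.09 to 0.05. Of the 9 libraries, 6 correlated best with one of their own number. Whether the replicate numbers pair the samples was not tested. With the replicate block, 0 genes were called in each comparison, and Aqp3 between high glucose and control was 1.93 (unadjusted p = 0.0809). Depth limits Aqp3, and for Slc6a12 it allows no comparison.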
